A study of Mus musculus with 12 samples.

Results

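Salt-inducible kinases, NUAK kinases and the CRTC coactivators were followed in whole mouse muscle, together with the kinase upstream of them and the catalytic subunits of AMPK. The 10 genes were taken by name from the gene table, which lists 54532 genes. The genes are Stk11, Prkaa1, Prkaa2, Sik1, Sik2, Sik3, Nuak1, Nuak2, Crtc2 and Crtc3. Sik1 and Nuak2 were chosen by their rise in CPM in the knockout libraries of these same data, so their difference between groups is described below and is not used as a test. The other 8 genes were taken for their place in the pathway. All 10 passed the filter on low counts that left 16393 genes, and the lowest count of any of them in any library was 73.

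RNA was sequenced from tibialis anterior, the muscle along the front of the shin, of mice labelled 129svlmJ, 5 days after an injection of glycerol. Glycerol injures the fibres and is followed by fat formation within the muscle. The 6 knockout libraries carry the genotype label "FAP no ppary". In them Pparg, which encodes the master regulator of fat cell formation, was removed by a conditional deletion in FAPs, the fibro-adipogenic progenitors of muscle, from which fat cells can form. The 6 control libraries are labelled wild type. Both groups received glycerol, and no uninjured muscle is compared here. The sources used here do not give the allele, the driver of the deletion, the age of the mice or whether a control carries the allele or the driver. The samples are lysates of whole muscle, so a lower level in FAPs and a smaller number of FAPs cannot be told apart in any value below. No label ties a library to an animal, so a p-value below measures the spread between these libraries, which may be technical.

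Library totals ran from 15716056 to 29790720 counts. Pparg was at 26.4 ± 10.3 CPM in knockout libraries and 57.4 ± 8.27 CPM in control libraries (SD, n = 6 each), and no knockout library reached the lowest control (log2 fold change -1.12, adjusted p = 0.0299, edgeR). CPM is the count of a gene scaled to a common library size. The summed level of 8 fast fibre markers ran from 11390 to 42618 CPM in knockout libraries and from 13590 to 35236 CPM in control libraries. The libraries may not all be independent of each other. At 54 loci that are either high or low in a library, 5 pairs of libraries within a group shared between 77.8% and 100% of states: knockout replicates 1 with 2, 3 with 4 and 5 with 6, and control replicates 2 with 3 and 4 with 5. Whether a pair stands for 1 animal or for related animals is not stated. The highest share of any other pair, knockout replicate 2 with control replicate 6, was 75.9%, little below the lowest of these pairs. Summed over the 5 pairs, 3 knockout sets stood against 4 control sets, and results are also given for the sets.

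LKB1, the product of Stk11, is a kinase that switches on AMPK and a family of related kinases by phosphorylating a threonine in their activation loop. The salt-inducible kinases (SIKs) and NUAK kinases belong to this family. SIKs phosphorylate CRTC coactivators and class IIa histone deacetylases, which are then held in the cytoplasm by 14-3-3 proteins. When cAMP rises, protein kinase A blocks the SIKs, CRTCs enter the nucleus and help CREB to switch on its target genes, of which Sik1 is one. In mouse muscle SIK1 is known to favour MEF2 activity through class IIa deacetylases, and NUAK kinases act on the myosin phosphatase.

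The coding stretch of the activation loop shows what the 7 kinases downstream of LKB1 have in common. It is printed below from the GENCODE M21 transcripts on GRCm38, 5′ to 3′ on the coding strand, with the codon of the threonine that LKB1 phosphorylates in capitals. Each stretch is exonic coding sequence of 81 bases.
Prkaa1: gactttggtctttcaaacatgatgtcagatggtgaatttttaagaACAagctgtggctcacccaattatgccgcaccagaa
Prkaa2: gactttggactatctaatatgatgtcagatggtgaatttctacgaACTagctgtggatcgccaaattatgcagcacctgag
Sik1: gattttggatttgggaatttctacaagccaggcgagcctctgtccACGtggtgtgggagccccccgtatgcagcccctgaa
Sik2: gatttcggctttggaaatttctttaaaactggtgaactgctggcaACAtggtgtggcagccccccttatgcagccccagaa
Sik3: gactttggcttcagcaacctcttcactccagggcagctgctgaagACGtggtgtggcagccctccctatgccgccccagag
Nuak1: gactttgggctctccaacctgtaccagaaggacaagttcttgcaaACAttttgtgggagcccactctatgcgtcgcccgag
Nuak2: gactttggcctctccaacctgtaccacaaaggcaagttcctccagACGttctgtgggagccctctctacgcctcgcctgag

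In Sik1 the stretch spans exons 5 and 6 of 14 (chr17:31850986-31851235, minus strand), and in Nuak2 it lies within exon 5 of 7 (chr1:132329964-132330044, plus strand). In Nuak1 it also lies in exon 5 of 7 (chr10:84380780-84380860, minus strand). In Prkaa1 (chr15:5168706-5170002, plus strand) and Prkaa2 (chr4:105049348-105051208, minus strand) it spans exons 4 and 5 of 9. It spans exons 4 and 5 in Sik2 (chr9:50917573-50935416, minus strand) and in Sik3 (chr9:46155540-46177951, plus strand) as well. Sik1 matched Sik2 at 77.8% of the 81 bases and Sik3 at 71.6%. Sik1 and Nuak2, the pair picked for their rise, matched at 60.5%. Nuak1 and Nuak2 matched at 84.0%, as did Prkaa1 and Prkaa2.

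The serine that SIKs phosphorylate in CRTC coactivators, which creates a 14-3-3 binding site, lies in a stretch of 33 bases that Crtc2 and Crtc3 share at 87.9%. The codon of that serine is in capitals.
Crtc2: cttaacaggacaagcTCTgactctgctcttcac
Crtc3: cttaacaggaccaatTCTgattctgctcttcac

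The stretch spans exons 5 and 6 in both (chr3:90259215-90259410, plus strand, for Crtc2, and chr7:80616541-80618601, minus strand, for Crtc3). On the coding strand, words of 50 bases nonetheless tell the transcripts of these genes apart almost throughout. The opposite strand was not searched, which matters where genes overlap and strand was not used in counting. Of the 50-base words in a transcript of each gene, 0 occurred in a transcript of another gene for 9 of the 10 genes, and 0.0987% did so for Crtc3.

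Per gene length, Stk11 had the highest level of the 10 genes and Sik2 the lowest in both groups. FPKM, the authors' value scaled by gene length and sequencing depth, put Stk11 at 26.4 ± 1.64 in knockout libraries and 25.5 ± 1.45 in control libraries (SD, n = 6 each). Sik2 was at 0.766 ± 0.163 FPKM in knockout libraries and 1.12 ± 0.232 FPKM in control libraries. In controls the order below Stk11 was Prkaa1, Crtc2, Sik1, Sik3, Prkaa2, Nuak1, Crtc3 and Nuak2. The ranges over libraries overlapped between Crtc2 and Sik1, Sik1 and Sik3, Sik3 and Prkaa2, Prkaa2 and Nuak1, and Crtc3 and Nuak2. The first gene of these pairs was the higher in 3 to 5 of 6 control libraries, and their order was not tested. In knockout libraries Sik1 stood second and Nuak2 stood above Crtc3 in 6 of 6 libraries. Sik1 and Prkaa1 overlapped there in range, although Sik1 was the higher of the pair in 6 of 6 knockout libraries. Neighbours from Sik3 down to Nuak2 in the knockout order (Sik3, Prkaa2, Nuak1 and Nuak2) also overlapped.

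**Figure D1:**
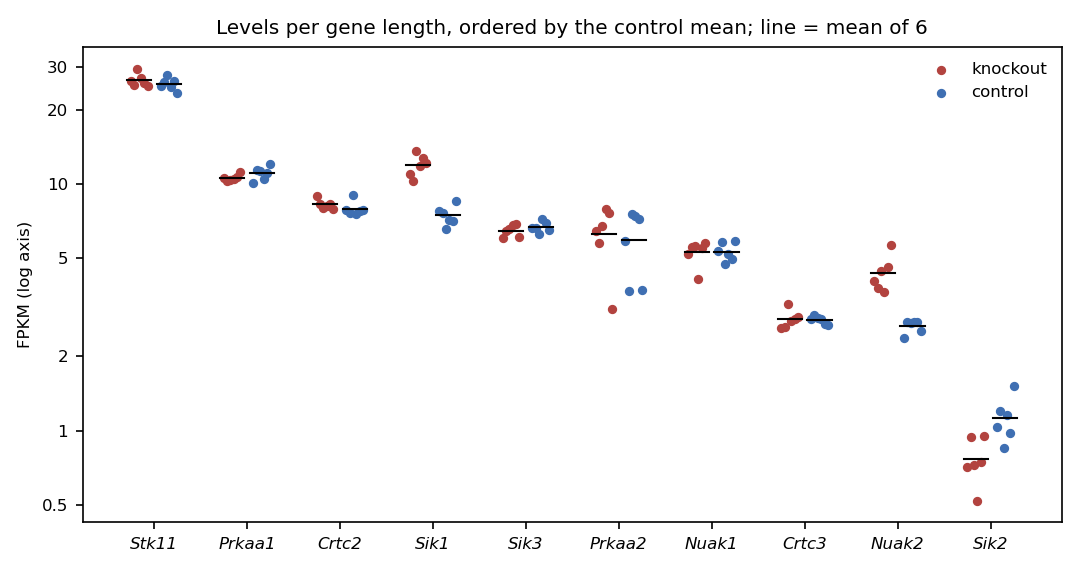
FPKM of the 10 genes on a log axis in each of 6 knockout (red, left) and 6 control (blue, right) libraries, ordered by the control mean, with a line at the mean of each group. Stk11 is the highest gene and Sik2 the lowest in both groups, and Sik1 and Nuak2 are the genes whose groups do not overlap.

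Among the 10 genes, Sik1 and Nuak2 had an adjusted p under 0.05 in the edgeR quasi-likelihood test, adjusted by Benjamini-Hochberg over the whole table of tested genes. These 2 are the genes picked for their rise, and 0 of the 10 were called lower. Over all tested genes 0.0488% were called higher, 0.75% were called lower and 0.799% were called in either direction. The knockout and control groups of 2 of the 10 genes, again Sik1 and Nuak2, did not overlap, against 1.43% of all tested genes. Both counts of 2 follow from the choice of the genes, and nothing is read from them.

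Stk11 encodes LKB1 (ENSMUSG00000003068, chr10:80115803-80130682, plus strand, GRCm38). It ran from 115 to 136 CPM in knockout libraries with a median of 119.9, and from 108 to 128 CPM in control libraries with a median of 118. The groups overlapped. The log2 fold change was 0.04 (SE 0.06, adjusted p = 0.934, edgeR), with a 95% interval of the normal approximation from 0.947- to 1.12-fold. The partners that LKB1 needs were Strada, Stradb, Cab39 and Cab39l, of which 0 of 4 passed the test. Cab39l had the smallest p of them and was at 33.8 ± 3.08 CPM in knockout libraries and 37.0 ± 1.33 CPM in control libraries (SD, n = 6 each, adjusted p = 0.592, edgeR).

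The catalytic subunits of AMPK, the energy sensor of the family, did not pass the test. Prkaa1 (ENSMUSG00000050697, chr15:5143861-5181899, plus strand) had a median of 49.5 CPM in knockout libraries, from 48.4 to 52.5, and of 52.9 CPM in control libraries, from 48.0 to 56.5. All 6 knockout libraries lay below the control median, yet none lay below the lowest control. Its log2 fold change was -0.07 (SE 0.05, adjusted p = 0.811, edgeR).

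Prkaa2, the catalytic subunit that prevails in skeletal muscle fibres (ENSMUSG00000028518, chr4:105029874-105109890, minus strand), varied most among libraries within a group. It ran from 24.8 to 63.9 CPM in knockout libraries with a median of 52.9, and from 29.8 to 61.1 CPM in control libraries with a median of 53.0. Its coefficient of variation was 27.9% in knockout libraries and 30.6% in control libraries. Knockout replicate 6 and control replicates 2 and 6 were the low libraries, and the same 3 had the lowest fast fibre marker levels, with mean log2 CPM of 9.69, 9.95 and 10.32 against 11.06 or more in every other library. The part of fibre content in the level of Prkaa2 was not tested. The log2 fold change was 0.07 (SE 0.24, adjusted p = 0.982, edgeR), with a 95% interval of 0.758- to 1.46-fold.

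On the FPKM scale Prkaa2 made up 36.6% ± 7.76 of the summed level of both catalytic subunits in knockout libraries and 34.3% ± 8.07 in control libraries (SD, n = 6 each). The log2 ratio of Prkaa2 to Prkaa1 differed by 0.15 between groups, knockout minus control (two-sided exact permutation p = 0.727, adjusted p = 0.727 over 3 ratios). That difference was 0.35 without knockout replicate 6, 0.02 without control replicate 2 and 0.003 without control replicate 6, so single libraries decide its size. Likewise, the log2 fold change of Prkaa2 was 0.21 without knockout replicate 6, and it was -0.03 without control replicate 2 and without control replicate 6. Of the beta and gamma subunits of AMPK, 0 of 5 passed. Prkag2, a gamma subunit, was at 26.8 ± 2.98 CPM in knockout libraries, below all controls in range, and 33.98 ± 3.18 CPM in control libraries (log2 fold change -0.34, SE 0.09, adjusted p = 0.0960, edgeR). Groups that did not overlap with the knockout below made up 1.27% of all tested genes.

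Sik1 (ENSMUSG00000024042, chr17:31844248-31855792, minus strand) is the salt-inducible kinase whose own transcription answers to cAMP and CREB. It ran from 46.9 to 61.7 CPM in knockout libraries with a median of 54.6, and from 29.9 to 38.9 CPM in control libraries with a median of 33.8. All 6 knockout libraries lay above all controls, which was so for 0.159% of the tested genes. Knockout replicates 1 and 2, a pair by the shared loci, were the lowest of their group at 49.6 and 46.9 CPM, and replicate 3 was the highest at 61.7 CPM. The means differed 1.59-fold (54.3 ± 5.41 CPM in knockout libraries against 34.1 ± 3.15 CPM in control libraries, SD, n = 6 each), with a log2 fold change of 0.67 (SE 0.08). With libraries summed into sets the log2 fold change was 0.65 (SE 0.10), and the adjusted p was 0.251 (edgeR), so Sik1 did not pass there.

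Sik2 (ENSMUSG00000037112, chr9:50892801-51009073, minus strand), which is known to be abundant in mouse fat cells, had the opposite sign. It ran from 5.01 to 9.12 CPM in knockout libraries with a median of 7.07, and from 8.23 to 14.6 CPM in control libraries with a median of 10.6. All 6 knockout libraries lay below the control median and 4 of them lay below every control. Knockout replicates 2 and 6, at 9.03 and 9.12 CPM, reached into the control range. The log2 fold change was -0.56 (SE 0.16), and the adjusted p over all genes was 0.160 (edgeR), so Sik2 did not pass. When the mitochondrial share was a covariate it passed, with a log2 fold change of -0.64 and an adjusted p of 0.0343 (edgeR). The counts of Sik2 are uncertain if strand was not used. It overlaps Ppp2r1b on the opposite strand by 1429 bases, and Ppp2r1b had 10839 counts over all libraries against 2304 for Sik2. Ppp2r1b itself had a log2 fold change of -0.25 (adjusted p = 0.232, edgeR).

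Sik3 (ENSMUSG00000034135, chr9:46012820-46224194, plus strand) lies 4.67 megabases from Sik2 on the same chromosome. It ran from 56.4 to 64.6 CPM in knockout libraries with a median of 61.0, and from 59.1 to 68.4 CPM in control libraries with a median of 62.7. The groups overlapped, with a log2 fold change of -0.06 (SE 0.06, adjusted p = 0.871, edgeR) and a 95% interval of 0.888- to 1.04-fold. The log2 ratio of Sik2 to Sik3, in FPKM, was -3.11 ± 0.37 in knockout libraries and -2.60 ± 0.29 in control libraries (SD, n = 6 each). Its difference was -0.51 (two-sided exact permutation p = 0.0216), and it did not pass after adjustment over the 3 ratios (adjusted p = 0.0649). With a pseudocount of 1 added to the FPKM values, which shrinks differences of genes as low as Sik2, the difference was -0.22 (exact permutation, adjusted p = 0.130).

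Within the SIK family Sik1 made up a larger share of the transcripts in knockout muscle, which follows from the choice of Sik1. It held 62.2% ± 2.24 of the summed SIK FPKM in knockout libraries and 48.8% ± 2.12 in control libraries (SD, n = 6 each). The share of Sik2 was 4.02% ± 0.970 in knockout libraries and 7.30% ± 1.08 in control libraries, which in part follows from the level of Sik1 in the sum. The summed SIK level ran from 17.7 to 20.9 FPKM in knockout libraries and from 13.7 to 16.6 FPKM in control libraries, a difference that also follows from the choice of Sik1.

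**Figure D2:**
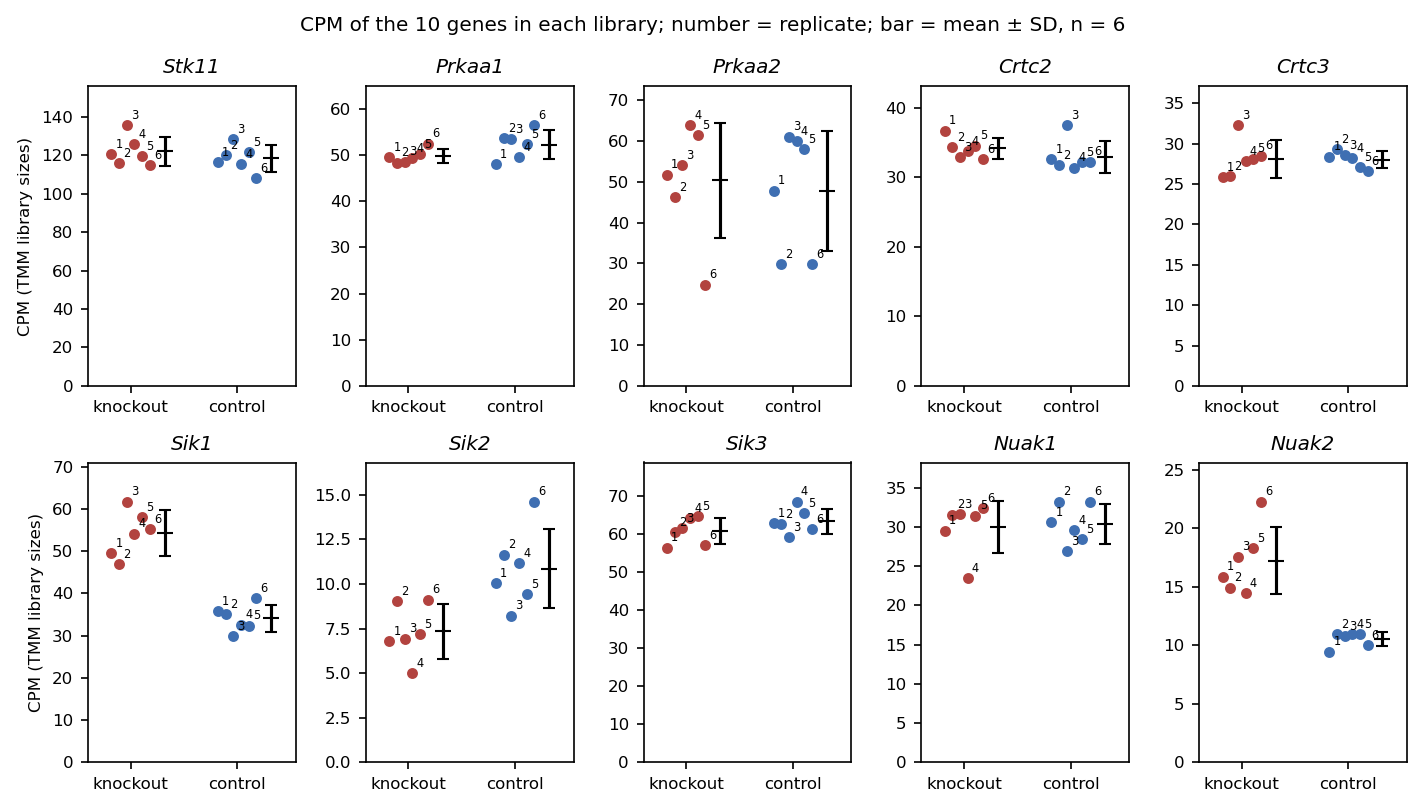
CPM of the 10 genes in each library, with knockout (red) left of control (blue), the replicate number beside each point, and a bar at the mean ± SD of 6 libraries. All knockout points of Sik1 and Nuak2 lie above all control points, and the 6 knockout points of Sik2 reach up to 9.12 CPM, within the control range from 8.23 to 14.6 CPM.

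Nuak2 (ENSMUSG00000009772, chr1:132316126-132333488, plus strand), a kinase whose gene is a known target of YAP, ran from 14.5 to 22.3 CPM in knockout libraries with a median of 16.7. In control libraries it ran from 9.48 to 10.96 CPM with a median of 10.9. All 6 knockout libraries lay above all controls, and knockout replicate 6 was the highest. The spread was unequal, with a coefficient of variation of 16.7% in knockout libraries and 5.95% in control libraries. The means differed 1.64-fold (17.2 ± 2.88 CPM in knockout libraries against 10.5 ± 0.627 CPM in control libraries, SD, n = 6 each), with a log2 fold change of 0.71 (SE 0.11). With libraries summed into sets the log2 fold change was 0.76 (SE 0.12) and the adjusted p was 0.251 (edgeR), so Nuak2 did not pass there.

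Nuak1 (ENSMUSG00000020032, chr10:84370905-84440597, minus strand), the other NUAK kinase, had a log2 fold change of -0.01 (SE 0.09, adjusted p = 0.993, edgeR). It ran from 23.5 to 32.4 CPM in knockout libraries with a median of 31.5, and from 26.9 to 33.2 CPM in control libraries with a median of 30.1. Its 95% interval was 0.881- to 1.11-fold. Nuak2 held 45.1% ± 3.13 of the summed NUAK FPKM in knockout libraries and 33.3% ± 2.63 in control libraries (SD, n = 6 each), which follows from the choice of Nuak2. Of the proteins on which NUAK kinases act, the myosin phosphatase subunits Ppp1r12a, Ppp1r12b and Ppp1cb and the chaperone partner Bag3, 0 of 4 passed. Ppp1r12a, the myosin phosphatase target, was at 84.1 ± 6.34 CPM in knockout libraries and 79.3 ± 3.84 CPM in control libraries (SD, n = 6 each).

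Sik1 and Nuak2 were not shown to vary together within a group. In the 6 knockout libraries Pearson's r of their log2 CPM was 0.49 (exact permutation p = 0.328, adjusted p = 0.328 over 2 correlations) and Spearman's rho was 0.60 (exact permutation p = 0.242, adjusted p = 0.433). In the 6 control libraries r was -0.62 (exact permutation p = 0.197, adjusted p = 0.328) and rho was -0.41 (exact permutation p = 0.433, adjusted p = 0.433). Without the 2 libraries farthest from the median of Sik1, r was 0.44 in knockout libraries and -0.71 in control libraries.

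The genes whose levels were most like those of Sik1 within groups had log2 fold changes of 0.29 or less, against 0.67 for Sik1. They were ranked among 13473 genes by the lower of the Pearson r in 6 knockout and in 6 control libraries. The ranking describes these libraries only and does not use the difference between groups. Sik1 and Nuak2 were picked for that difference, so nothing is read from the contrast. Ints2, a subunit of the Integrator complex, came first with r of 0.98 in knockout libraries and 0.96 in control libraries, and its log2 fold change was -0.003 (adjusted p = 0.999, edgeR). Zfp607a, Sh3rf1, Osbpl3 and Chst3 followed, with lower r from 0.91 to 0.94 and log2 fold changes from 0.09 to 0.29. For Nuak2 the genes were Dnajb9, Arsg, Dr1, B4galt5 and Exoc5, with lower r from 0.79 to 0.87. Their log2 fold changes ran from -0.18 to 0.15, and 0 of the 10 genes on both rankings passed the test.

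The coactivators did not pass the test. Crtc2 (ENSMUSG00000027936, chr3:90254163-90264125, plus strand), best known from the response of liver to fasting, ran from 32.5 to 36.7 CPM in knockout libraries with a median of 34.03. In control libraries it ran from 31.4 to 37.5 CPM with a median of 32.2. All 6 knockout libraries lay above the control median, yet control replicate 3 was the highest of all. The log2 fold change was 0.05 (SE 0.06, adjusted p = 0.919, edgeR), with a 95% interval of 0.955- to 1.12-fold.

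Crtc3 (ENSMUSG00000030527, chr7:80586627-80688877, minus strand) ran from 25.9 to 32.3 CPM in knockout libraries with a median of 28.0, and from 26.5 to 29.3 CPM in control libraries with a median of 28.3. The log2 fold change was 0.01 (SE 0.07, adjusted p = 0.997, edgeR), with a 95% interval of 0.918- to 1.10-fold. The log2 ratio of Crtc2 to Crtc3 differed by 0.05 between groups, knockout minus control (two-sided exact permutation p = 0.522, adjusted p = 0.727 over 3 ratios). Crtc1, the third coactivator, which is not among the 10 genes, was at 20.4 ± 1.99 CPM in knockout libraries and 19.1 ± 1.16 CPM in control libraries (SD, n = 6 each, adjusted p = 0.824, edgeR).

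**Figure D3:**
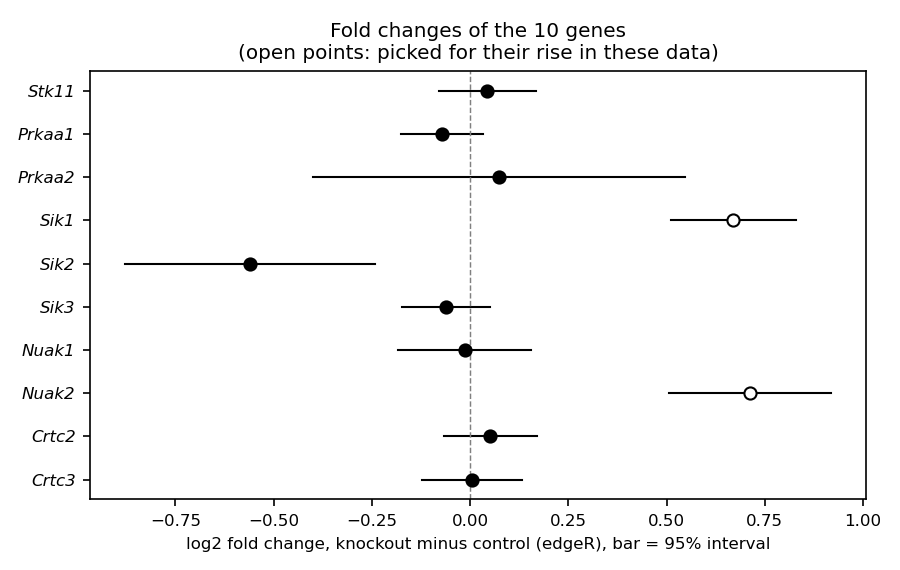
Log2 fold change, knockout minus control, of the 10 genes with a bar for the 95% interval. Open points mark Sik1 (0.67) and Nuak2 (0.71), picked for their rise, and of the other 8 genes Sik2 (-0.56) lies farthest from 0.

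Around these genes, 82 genes of the pathway were listed and 78 were tested, of which 0 rose and 0 fell at an adjusted p of 0.05 (edgeR). At an unadjusted p under 0.05 there were 16, which is to be read against 9.47% of all tested genes. With DESeq2, 0 were called higher and 4 lower (Pck1, Prkag2, Prkar2b and Ywhab), and with limma-voom 2 were called higher (Mef2d and Tead4) and 4 lower (Pck1, Prkar2b, Rgs2 and Ywhab). Both methods also called more genes over the whole table than edgeR did. DESeq2 called 64 higher and 323 lower there, and limma-voom 62 higher and 331 lower, so nothing is read from these pathway calls. The log2 fold change was positive in 50 of the 78 genes and negative in 28, and its median was 0.05 against a median of -0.001 over all tested genes, of which 49.5% were positive.

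Of the targets of CREB, 0 of 15 tested genes passed, 11 had positive log2 fold changes and the median was 0.16. Per1, a clock gene that cAMP induces, was at 42.3 ± 12.3 CPM in knockout libraries and 28.8 ± 5.93 CPM in control libraries (SD, n = 6 each; log2 fold change of 0.55, adjusted p = 0.235, edgeR), and it was singled out after its values were seen. Rgs2, a brake on G protein signalling, was at 60.6 ± 8.12 CPM in knockout libraries and 78.8 ± 13.4 CPM in control libraries (log2 fold change -0.38, adjusted p = 0.223, edgeR). Pck1, which makes glycerol phosphate in fat cells and is also on the adipocyte list, was at 22.2 ± 13.6 CPM in knockout libraries and 93.3 ± 25.6 CPM in control libraries (log2 fold change -2.07, adjusted p = 0.0515, edgeR). CREB itself and its partners had 0 of 6 genes past the test. Creb1 was at 46.1 ± 3.97 CPM in knockout libraries and 48.2 ± 3.07 CPM in control libraries.

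Of 9 genes of protein kinase A, which blocks the SIKs, 0 passed and 7 were positive. Prkar2b, a regulatory subunit that fat cells express, was at 45.5 ± 13.6 CPM in knockout libraries and 81.4 ± 13.3 CPM in control libraries (SD, n = 6 each; log2 fold change of -0.84, adjusted p = 0.05005, edgeR). Prkar2a, its relative, had a log2 fold change of 0.14 (adjusted p = 0.789, edgeR).

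Of the class IIa deacetylases and MEF2 factors, on which SIK signals converge, 0 of 7 passed and 6 were positive. Mef2d was at 162 ± 23.3 CPM in knockout libraries and 134 ± 3.84 CPM in control libraries (SD, n = 6 each; log2 fold change of 0.27, adjusted p = 0.234, edgeR). Mef2a was at 243 ± 31.6 CPM in knockout libraries and 201 ± 18.4 CPM in control libraries (log2 fold change 0.28, adjusted p = 0.280, edgeR).

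Of 7 genes for 14-3-3 proteins, 0 passed and 6 were negative. Ywhab was at 263 ± 33.4 CPM in knockout libraries and 339 ± 32.2 CPM in control libraries (SD, n = 6 each; log2 fold change of -0.37, adjusted p = 0.113, edgeR). Their summed level ran from 1565 to 1753 CPM in knockout libraries and from 1764 to 2000 CPM in control libraries. The groups of this sum do not overlap, and the sum was not tested. The sum is weighted to abundant genes, and of the 7 genes only Ywhab had groups that did not overlap. The mean log2 CPM of the same genes ran from 6.93 to 7.13 in knockout libraries, within the control range from 6.83 to 7.17. That mean gives equal weight to Sfn, a gene of low level with a positive log2 fold change of 0.82. The mean was not tested either.

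YAP, TAZ, the TEAD factors and their target genes, which bear on Nuak2, had 0 of 12 genes past the test, 8 positive, and a median of 0.20. Tead4 was at 30.1 ± 5.47 CPM in knockout libraries and 22.3 ± 2.96 CPM in control libraries (SD, n = 6 each; log2 fold change of 0.43, adjusted p = 0.160, edgeR). Tead3 was at 27.9 ± 5.01 CPM in knockout libraries and 22.5 ± 1.68 CPM in control libraries (adjusted p = 0.296, edgeR). Among the other kinases downstream of LKB1, 0 of 6 tested genes passed and all 6 log2 fold changes lay between -0.11 and 0.08. The other kinases that act on the activation loop, Camkk1, Camkk2 and Map3k7, had 0 of 3 past the test.

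**Figure D4:**
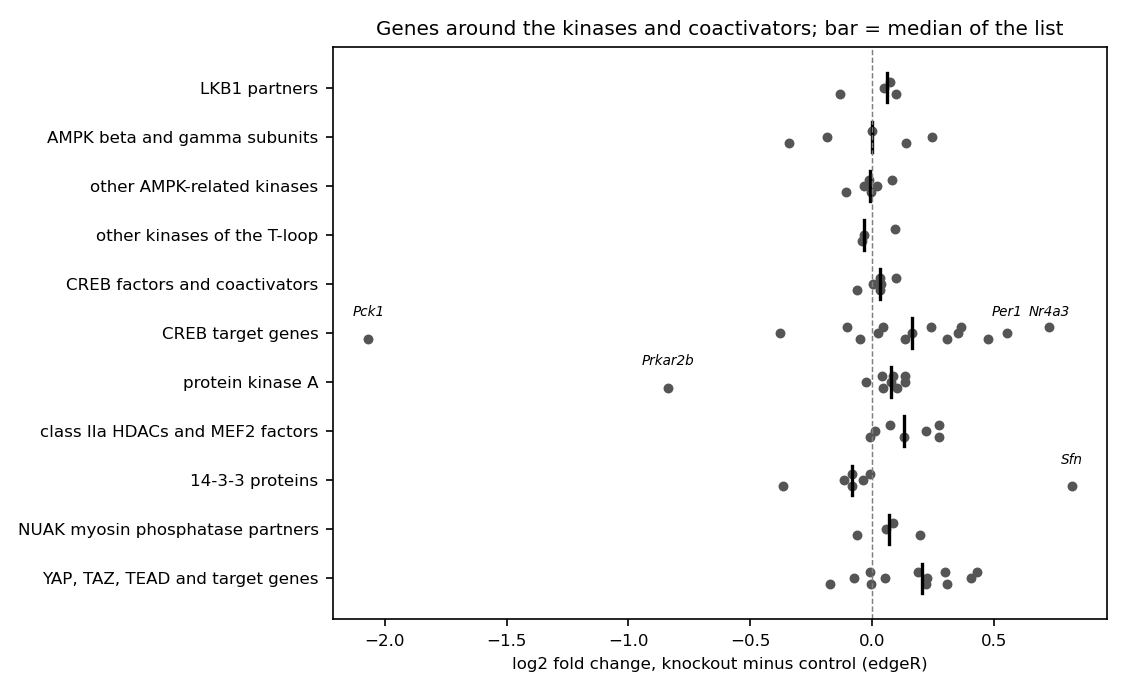
Log2 fold change, knockout minus control, of the tested genes of 11 lists around the kinases and coactivators, 1 point a gene, with a bar at the median of each list. Most genes lie near 0, and the genes farthest from it are Pck1 (-2.07) and Prkar2b (-0.84) to the left and Sfn (0.82) and Nr4a3 (0.73) to the right, none of which passed the test.

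Markers of several cell types moved with the groups in which these genes were measured. All 13 adipocyte markers were negative in log2 fold change, the median was -1.63, and 3 of them (Fabp4, Lpl and Adrb3) fell past the test. Their summed level ran from 844 to 2927 CPM in knockout libraries and from 3956 to 6186 CPM in control libraries, and all 13 passed the filter on low counts. Of 9 FAP markers 8 were negative and 2 passed, with summed levels from 1307 to 1987 CPM in knockout libraries and from 1930 to 2580 CPM in control libraries. The part of either in the values of the kinases was not tested.

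Among the knockout libraries, Sik2 and the adipocyte markers had different orders. The lowest adipocyte levels were in knockout replicates 5 and 6, with mean log2 CPM of 3.34 and 4.24, where Sik2 was at 7.201 and 9.124 CPM. Knockout replicate 1 had the highest adipocyte level of its group, 6.24, with Sik2 at 6.80 CPM. In the control group, Sik2 was at 14.6 CPM in replicate 6, which had the lowest adipocyte level. It was at 11.7 CPM in control replicate 2, which had the highest. By group, both the mean of Sik2 and that of the adipocyte markers were lower in knockout libraries, although Sik2 did not pass the test. Among the knockout libraries, Nuak2 was highest where adipocyte markers were lowest, at 18.3 and 22.3 CPM in knockout replicates 5 and 6. These replicates are a pair by the shared loci. In the other 4 knockout libraries Nuak2 ran from 14.5 to 17.6 CPM. The control libraries did not show this order. Control replicate 6 had their lowest adipocyte level, 6.53, with Nuak2 at 10.05 CPM. Control replicate 2 had their highest, 7.37, with Nuak2 at 10.96 CPM. The part of fat content in these levels was not tested.

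Junction and denervation markers had positive log2 fold changes in 9 of 9 cases, with 0 past the test. Their mean log2 CPM was 6.41, 6.14 and 6.04 in knockout replicates 3, 4 and 5, 5.53 or less in knockout replicates 1, 2 and 6, and 5.66 or less in control libraries. Sik1 was at 61.7, 54.1 and 58.0 CPM in knockout replicates 3, 4 and 5. In knockout replicates 1, 2 and 6, whose junction level was 5.53 or less, Sik1 was at 49.6, 46.9 and 55.1 CPM. The part of these markers in the level of Sik1 was not tested. Markers of differentiating myocytes had 8 of 8 positive log2 fold changes, again with 0 past the test. Myoblast markers had 7 of 8 positive log2 fold changes and 0 past the test. Their summed level ran from 2178 to 4241 CPM in knockout libraries and from 2169 to 3528 CPM in control libraries.

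T and NK cell markers were positive in 10 of 10 cases with 0 past the test, with summed levels from 26.6 to 52.5 CPM in knockout libraries and from 15.0 to 34.4 CPM in control libraries. Immediate early genes, which handling of tissue can induce along with Sik1, had 9 of 12 positive log2 fold changes, 0 past the test and a median of 0.11. Their summed level ran from 418 to 491 CPM in knockout libraries, within the control range from 379 to 494 CPM. Their part in the level of Sik1 was not tested. Macrophage, endothelial, mural, Schwann cell and neutrophil markers had 0 genes past the test.

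**Figure D5:**
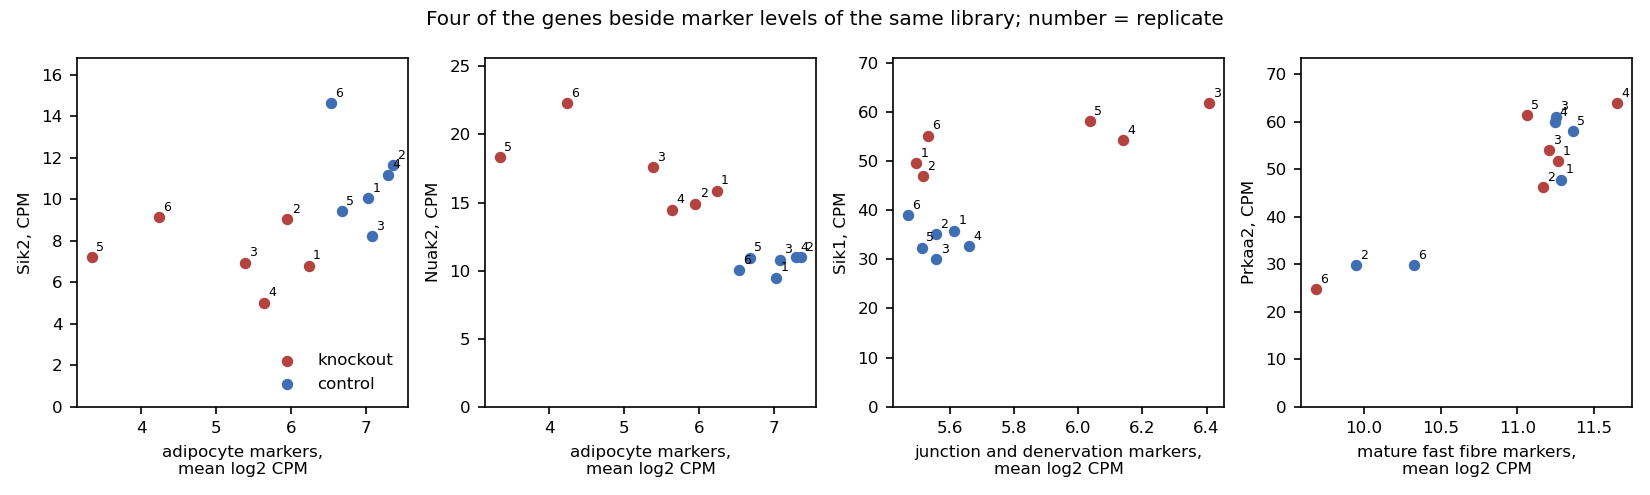
CPM of Sik2 and Nuak2 against the mean log2 CPM of adipocyte markers, of Sik1 against that of junction and denervation markers, and of Prkaa2 against that of fast fibre markers, in 6 knockout (red) and 6 control (blue) libraries numbered by replicate. Prkaa2 is low in the 3 libraries with the lowest fast fibre level, and the junction level is above 6 in knockout replicates 3, 4 and 5 only. The part of the markers in the level of any of the genes was not tested.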

How the data were processed

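Per the submitters' processing notes, the authors used fastp, HISAT2 2.0.5 and featureCounts with GRCm38 (mm10). The deposited gene table holds whole-number read counts per gene. Whether counting used strand is not stated, and the protocols in the labels describe a stranded and an unstranded kit without saying which was used. A second deposited table holds the authors' FPKM values, which are used for levels between genes.

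The counts went into edgeR 4.0.16 (R 4.3.3): filterByExpr (minimum count 10, minimum total 15), TMM scaling, robust quasi-likelihood F tests of knockout against control and Benjamini-Hochberg adjustment over 16393 genes, with a threshold of 0.05. Log2 CPM values use a prior count of 2. DESeq2 1.42.0 and limma 3.58.1 served as alternatives. The code of the fit was run on simulated counts with known changes. The simulated libraries were independent and had the same dispersion for all genes. That run therefore does not show how the fit behaves under the spread of these libraries. Ratios were compared by exact permutation over libraries (scipy 1.17.1). Libraries of 1 group that agreed in at least 75% of the loci with a gap of 1.5 or more in log2 CPM were summed into sets, an alternative added after the data were seen. Within groups, chi-square values per degree of freedom of pairs of libraries ran from 12.9 to 159, so no library was counted as a duplicate.

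All libraries were called female, so sex was not used as a covariate. The members and lists were chosen with earlier results of these data known. By rule the text names the 10 members, Pparg, up to 2 genes of the smallest p from each pathway list, and the 5 genes most like Sik1 and the 5 most like Nuak2. Outside the rule, Per1, Nr4a3 and the called adipocyte markers were named after their values were seen, Ppp2r1b for its overlap with Sik2, and other genes only as members of a list.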

Additional observations from a re-analysis of the deposited data

Results flagged for a closer look

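In 20 groups of 6 libraries, the 10 genes in knockout and control, 2 libraries stood apart from the rest of their group by Dixon's test at the 95% level. Chance flags about 1 group in 20. Nuak1 in knockout replicate 4 was at 23.5 CPM, against 29.5 CPM or more in the other knockout libraries. Crtc2 in control replicate 3 was at 37.5 CPM, against 32.6 CPM or less in the other control libraries. The cause was not tested for either.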

How the results depend on the processing

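Sik1 and Nuak2 were picked for their rise in these same libraries, so their results under the alternatives describe the fits and are no support. Their log2 fold changes kept their sign under all 23 alternatives. Sik1 passed the threshold in 22 of them and failed with libraries summed into sets (0.65, adjusted p = 0.251, edgeR). Nuak2 passed in 21 and failed in that fit (0.76, adjusted p = 0.251) and without knockout replicate 3 (0.71, adjusted p = 0.0532). Sik2 passed in 1, when the mitochondrial share was a covariate (-0.64). The other 7 genes did not pass in any. The number of the 10 genes past the threshold was 2, and it was 3 with the mitochondrial share as a covariate. It ran from 1 to 2 with each library left out in turn, was 1 without knockout replicate 3, and was 0 with libraries summed into sets. Over all genes 131 passed, against 387 with DESeq2, 393 with limma-voom, 236 with the replicate block and 0 with libraries summed into sets, where 1127 had an unadjusted p under 0.05. With each library left out it ran from 6, without knockout replicate 3, to 214, without knockout replicate 2. Same-numbered libraries correlated between -0.13 and 0.46 in their deviations from the group means, and only those numbered 6 correlated best with their own number, so the numbers were not taken to pair the libraries. With the replicate block Sik1 had an adjusted p of 0.0101 and Nuak2 of 0.0138 (edgeR), and no call of the 10 genes changed. Both genes were picked from these data and the numbers do not pair the libraries, so nothing is read from that fit. The difference between groups, knockout minus control, in the log2 ratio of Sik2 to Sik3 was -0.51, ran from -0.59 to -0.39 with each library left out, and passed the adjusted threshold without knockout replicate 2 or 6 (adjusted p = 0.0390, exact permutation, for each). With the block, as signs of same-numbered pairs, its p was 0.03125 and its adjusted p 0.0938 (exact permutation). Signs of 6 pairs allow no smaller p. Beside the larger p of the other ratios it could not pass after adjustment, so nothing is read from it. With libraries averaged into sets the difference was -0.56 (exact permutation p = 0.0571, adjusted p = 0.171). So few sets allow no smaller p, so this test could not pass and nothing is read from it. With a pseudocount of 1 on FPKM it was -0.22, and the log2 fold change of Sik2 was -0.27, since the pseudocount shrinks differences of low genes. Sex could not be a covariate, since all libraries were called female. The cause of these shifts was not tested.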
